A study of Mus musculus with 10 samples.

Results

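The transcripts described here are 6 keratins (Krt7, Krt8, Krt18, Krt19, Krt20 and Krt23), 2 small proline-rich genes (Sprr1a and Sprr2g) and 2 plakins of the cornified envelope (Evpl and Ppl). These 10 genes, of 55414 in the table, were named in advance as simple epithelial keratins and envelope genes, and the group was selected on measured values, since it was chosen by the difference of Sprr2g between Camk2d knockout (KO) clones made with different guides. The values that chose it, exon 9 against exon 8 KO clones, are therefore given below as a description, with no test. All 10 genes were above 0 in every sample.

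The measurements are RNA-seq values from mpkCCD cells, an immortalized mouse line of collecting duct principal cells on a C57BL/6 background. All 10 samples were grown with the V2 vasopressin receptor agonist dDAVP at 0.1 nM for 7 days, 4 in complete medium and 3 in simple medium, so no sample without dDAVP enters. The 5 Camk2d-intact samples were the parental wild-type line and 2 samples from each of 2 sublines that were also exposed to the editing reagents and in which CAMK2D protein persisted, called clone 1 and clone 2. They stand for 3 cell lines. The 5 Camk2d KO samples were 5 single-cell clones, each 1 sample, in which CRISPR-Cas9 targeted the kinase domain. The guide cut in exon 8 for KO 1 and KO 2 (exon 8 clones) and in exon 9 for the remaining 3 (exon 9 clones). This assignment was read by clone number from the study's list of mutations, not from the sample labels. The unit is TPM (transcripts scaled to a fixed total), which divides reads by transcript length and sums to the same total in every sample, so levels of different genes can be compared but sequencing depth is unknown. Camk2d itself was at 132 ± 6.97 TPM in intact samples and 24.7 ± 3.65 in KO clones (SD, n = 5 each; limma adjusted p = 1.2e-06), without overlap.

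Keratins build the intermediate filaments of epithelial cells. A filament needs a type I and a type II keratin in equal number, and simple epithelia such as the collecting duct use the type II keratins K8 and K7 with the type I keratins K18 and K19. The cornified envelope is a protein shell formed under the membrane of stratified squamous cells, where transglutaminases crosslink small proline-rich proteins to a scaffold that includes envoplakin and periplakin, the products of Evpl and Ppl. Several of these envelope genes are also active in bladder lining and in injured simple epithelia.

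The genes lie in few places. On GRCm38, in the GENCODE M21 annotation, the type II genes Krt7 (chr15:101411043-101430313, plus strand) and Krt8 (chr15:101996698-102004482, minus strand) sit on chromosome 15, and so does the type I gene Krt18 (chr15:102028180-102032027, plus strand), head to head with Krt8 across 23.7 kb. The other type I genes are on chromosome 11, where Krt20 (chr11:99428403-99438150) and Krt23 (chr11:99477974-99493137), both on the minus strand, are 39.8 kb apart and Krt19 (chr11:100140810-100148665, minus strand) lies beyond them. Sprr2g (chr3:92373915-92375229, plus strand) and Sprr1a (chr3:92483952-92485895, minus strand) are 108.7 kb apart on chromosome 3. Evpl is at chr11:116220559-116238077 and Ppl at chr16:5086291-5132421, both on the minus strand.

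Promoter sequences of 6 of the 10 genes were found in a RefSeq table on GRCm38.p6, which gives 250 bases before and 50 after each gene's start. Of these, 4 are shown because the results turn on them: Sprr1a as the small proline-rich member that the table holds, the neighbouring partners Krt8 and Krt18 as the most abundant pair, and Krt23 as the keratin that varied most. The windows are chr3:92485832-92486131 (Sprr1a, minus strand), chr15:102004293-102004592 (Krt8, minus strand), chr15:102027966-102028265 (Krt18, plus strand) and chr11:99493071-99493370 (Krt23, minus strand). They are printed 5′ to 3′ on the gene's strand. Capitals mark matches, on either strand, to an AP-1 motif (TGANTCA), a grainyhead motif (AACNGGTT), an ETS motif (CAGGAAG), a Kruppel-like motif (CCACCC) or a TATA motif (TATAAA).
Sprr1a: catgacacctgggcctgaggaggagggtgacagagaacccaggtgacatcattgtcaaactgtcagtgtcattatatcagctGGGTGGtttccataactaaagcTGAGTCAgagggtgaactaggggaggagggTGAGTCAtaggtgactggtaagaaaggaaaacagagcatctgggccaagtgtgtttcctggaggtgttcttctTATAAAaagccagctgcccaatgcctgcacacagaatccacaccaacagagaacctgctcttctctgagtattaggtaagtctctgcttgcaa
Krt8: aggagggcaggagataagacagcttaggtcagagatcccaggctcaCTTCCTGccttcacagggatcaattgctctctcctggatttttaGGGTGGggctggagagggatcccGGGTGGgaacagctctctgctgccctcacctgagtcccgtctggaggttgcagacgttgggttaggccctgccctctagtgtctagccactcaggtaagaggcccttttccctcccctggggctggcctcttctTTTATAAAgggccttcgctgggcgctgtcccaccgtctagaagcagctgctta
Krt18: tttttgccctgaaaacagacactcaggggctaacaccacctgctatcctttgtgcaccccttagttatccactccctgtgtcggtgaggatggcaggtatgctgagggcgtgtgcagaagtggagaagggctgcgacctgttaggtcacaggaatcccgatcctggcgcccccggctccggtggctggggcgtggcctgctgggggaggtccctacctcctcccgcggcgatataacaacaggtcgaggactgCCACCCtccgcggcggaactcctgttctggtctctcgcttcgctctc
Krt23: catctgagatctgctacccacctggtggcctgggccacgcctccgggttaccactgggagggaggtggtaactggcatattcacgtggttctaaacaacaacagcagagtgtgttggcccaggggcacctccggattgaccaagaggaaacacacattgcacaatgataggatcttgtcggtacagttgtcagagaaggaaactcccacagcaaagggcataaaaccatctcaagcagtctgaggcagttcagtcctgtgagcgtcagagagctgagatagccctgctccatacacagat

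The Sprr1a window held 2 AP-1 matches, both TGAGTCA, beginning 146 and 116 bases before the start, with a Kruppel-like match at 168 and a TATA match at 43. Krt8 held an ETS match at 204, Kruppel-like matches at 160 and 137, and a pair of TATA matches on opposite strands that overlap each other next to the start. Krt18 had a single Kruppel-like match, after the start, and Krt23 had none of these letters. Of the windows not printed, Krt7 had an ETS match, and Krt20 had an ETS, a Kruppel-like and a TATA match. No member window held the grainyhead letters, and no matches to different motifs overlapped. Among 32851 windows of the same length, AP-1 letters occurred in 7.81%, grainyhead in 2.09%, ETS in 13.3%, Kruppel-like in 31.5% and TATA in 13.6%. A match is a run of letters and was not tested as a binding site.

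The members differed widely in level. Krt18 was the third most abundant transcript of all, at 5546 ± 192 TPM in intact samples and 5350 ± 173 in KO clones. Krt8 followed at 1823 ± 95.8 and 1727 ± 113, Krt19 at 1336 ± 87.2 and 1228 ± 77.3, Krt7 at 736 ± 27.3 and 748 ± 78.6, and Krt20, known from intestine and bladder lining, at 491 ± 34.4 and 449 ± 36.8. Ppl was at 93.1 ± 7.04 and 96.4 ± 15.0 and Krt23 at 76.8 ± 4.27 and 51.1 ± 24.8. The rarest were Sprr2g at 32.7 ± 9.77 and 17.7 ± 10.3, Sprr1a at 26.6 ± 3.84 and 21.9 ± 8.96, and Evpl at 19.1 ± 1.08 and 20.0 ± 4.29 (all mean TPM ± SD, intact then KO, n = 5 each). In intact samples the ranges of Ppl (86.6 to 105) and Krt23 (70.5 to 81.4) did not meet. Sprr2g (23.9 to 46.0) overlapped Sprr1a (22.4 to 32.4), and both lay above Evpl (18.2 to 20.9).

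**Figure D1:**
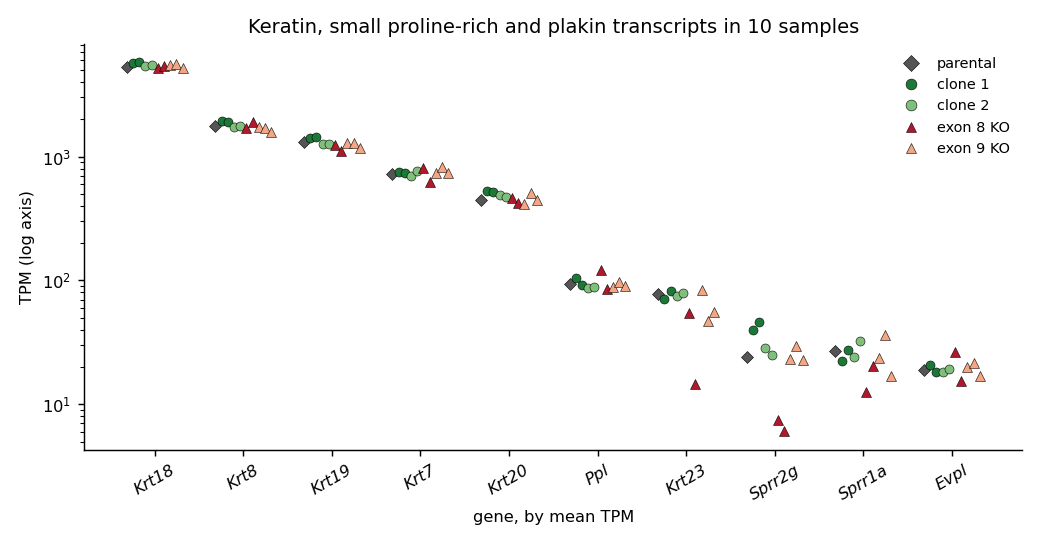
TPM of the 10 genes (log axis) in each sample, by gene in order of mean TPM. Diamonds are the parental line, circles the intact clones and triangles the KO clones. The 5 most abundant keratins stay between 412 and 5754 TPM with little spread, while Sprr2g in both exon 8 KO clones (7.52 and 6.04) and Krt23 in KO 2 (14.5) sit below all other samples.

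Keratin transcripts made up 0.922% to 1.05% of all TPM, and the 6 keratins named above held 99.7% of that. Krt18 alone was 54.5% to 56.6% of keratin TPM. Type I members summed to 7449 ± 300 TPM in intact and 7078 ± 243 in KO samples (SD, n = 5 each), and type II members to 2560 ± 110 and 2475 ± 91.6. The ratio of type I to type II transcripts stayed between 2.73 and 2.96 over the 10 samples, and that of Krt18 to Krt8 between 2.82 and 3.27. Type I transcripts thus exceeded type II transcripts in each library, although the proteins pair in equal number. Reads of Krt8 are less certain than those of the other members, since 26.9% of its 50-base windows recur in the pseudogene Krt8-ps, listed at 107 to 136 TPM. For the other 9 members at least 99.3% of windows were unique to the gene.

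The first comparison asks whether loss of Camk2d changed these transcripts. By limma on log2(TPM + 1) over 20000 genes, with Benjamini-Hochberg adjustment, 0 of the 9 members other than Sprr2g passed an adjusted p of 0.05, where 0.00500% of all genes did, Camk2d being the single gene called. At an unadjusted p under 0.05, which 6.99% of genes passed, 0 of the 9 were found as well. Sprr2g is left out of the counts in this paragraph because its KO values chose the group. The log2 difference was below 0 for 6 of the 9 and above 0 for 3, with a median of -0.08 against 0.02 over all genes tested, of which 42.7% were below 0. None of the 9 separated the groups without overlap, which 1.64% of all genes did. The SD of TPM among KO clones exceeded that among intact samples in 7 of the 9, against 66.9% of all genes tested. The median coefficient of variation of TPM was 5.68% in intact samples and 10.5% in KO clones, against 14.1% and 19.8% over all genes. The intact samples include repeats of the same clones and the KO samples do not, so cell line and group cannot be told apart in that spread.

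**Figure D2:**
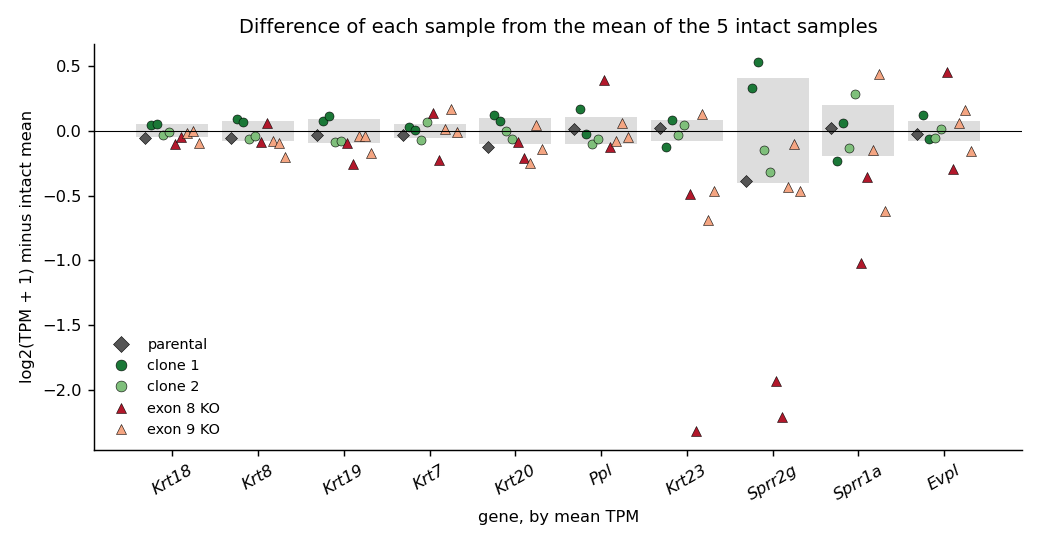
Difference of log2(TPM + 1) of each sample from the mean of the 5 intact samples, by gene; grey bands are ± 1 SD of the intact samples, and symbols are as in the plot of levels. The 5 most abundant keratins stay between -0.25 and 0.17, Krt23 is at -2.32 in KO 2, and Sprr2g at -1.94 and -2.21 in the exon 8 clones KO 1 and KO 2.

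The type II keratins differed little between the groups. Krt8, the obligate type II partner in simple epithelia, was 1750, 1943, 1911, 1740 and 1773 TPM in intact samples (parental, clone 1 and clone 2 in pairs) and 1715, 1902, 1726, 1707 and 1585 in KO 1 to KO 5. Only KO 2 lay inside the intact range, and the log2 difference of -0.08 (SE 0.07) did not pass the test (adjusted p = 0.820). Krt7, a keratin of ducts and bladder, was 628 TPM in KO 2 and 733 to 828 in the other KO clones, around the intact range of 701 to 771. Its log2 difference was 0.02 (SE 0.07, adjusted p = 0.978).

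Among type I keratins, Krt18 ranged from 5321 to 5754 TPM in intact samples and from 5162 to 5550 among KO clones. Its log2 difference was -0.05 (SE 0.07, adjusted p = 0.896). Krt19, the shortest keratin, lacks most of the tail domain and was 1254 to 1446 TPM in intact samples and 1118 to 1297 among KO clones. The difference was -0.12 (SE 0.07, adjusted p = 0.759). Krt20 gave nearly the same difference, -0.13 (SE 0.07, adjusted p = 0.759), with 448 to 532 TPM in intact samples against 412 to 505 in KO clones. The ranges of all 3 genes overlapped between the groups.

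Krt23, a type I keratin of glandular and gut epithelia, varied far more. It was 78.1, 70.5, 81.4, 74.9 and 79.3 TPM in the intact samples and 54.3, 14.5, 84.0, 47.3 and 55.4 in KO 1 to KO 5. All 5 KO clones lay outside the intact range, 4 below it and KO 3 above it. The log2 difference was -0.77 (SE 0.36, adjusted p = 0.736), and a two-sided exact permutation test over the samples gave p = 0.0476, where 0.00794 is the smallest possible. Taking 1 mean per cell line, 5 against 3, the exact permutation p was 0.196, where 0.0357 is the smallest possible. Without KO 2 the log2 difference shrank to -0.38 (adjusted p = 0.577).

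Of the small proline-rich genes, whose short proteins bridge other envelope proteins, Sprr2g was 23.9, 39.9, 46.0, 28.4 and 25.1 TPM in intact samples and 7.52, 6.04, 23.1, 29.4 and 22.6 in KO 1 to KO 5. KO 1 and KO 2 were far below all other samples, while KO 4 lay within the intact range and KO 3 and KO 5 just under it. The log2 difference between KO and intact was -1.03 (SE 0.41). It is given with no p, since it includes the KO values for which the gene was picked. Sprr1a, which is induced in many injured tissues, was 26.8, 22.4, 27.6, 24.0 and 32.4 TPM in intact samples and 12.5, 20.5, 23.7, 36.1 and 16.9 in KO clones. KO 4 held the highest value of all samples and KO 1 the lowest, so clones fell on both sides of the intact range. Its log2 difference was -0.34 (SE 0.23, adjusted p = 0.787; exact permutation p = 0.230). It was -0.17 without KO 1 and -0.54 without KO 4 (adjusted p = 0.809 and 0.647).

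The plakins, which tie filaments to the envelope and to desmosomes, showed the highest level of the series in an exon 8 clone. Evpl was 18.8, 20.9, 18.2, 18.3 and 19.3 TPM in intact samples and 26.4, 15.4, 19.9, 21.4 and 17.0 in KO clones. Ppl was 94.0, 105, 91.5, 86.6 and 88.9 in intact samples and 122, 85.1, 87.7, 97.1 and 89.9 in KO clones. For both genes KO 1 was the highest and KO 2 the lowest of the 10 samples. The log2 differences were 0.04 for Evpl (SE 0.12, adjusted p = 0.955) and 0.04 for Ppl (SE 0.09, adjusted p = 0.945), and both turned below 0 without KO 1. Ppl exceeded Evpl by 4.41 to 5.54 times, although envoplakin and periplakin bind each other.

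**Figure D3:**
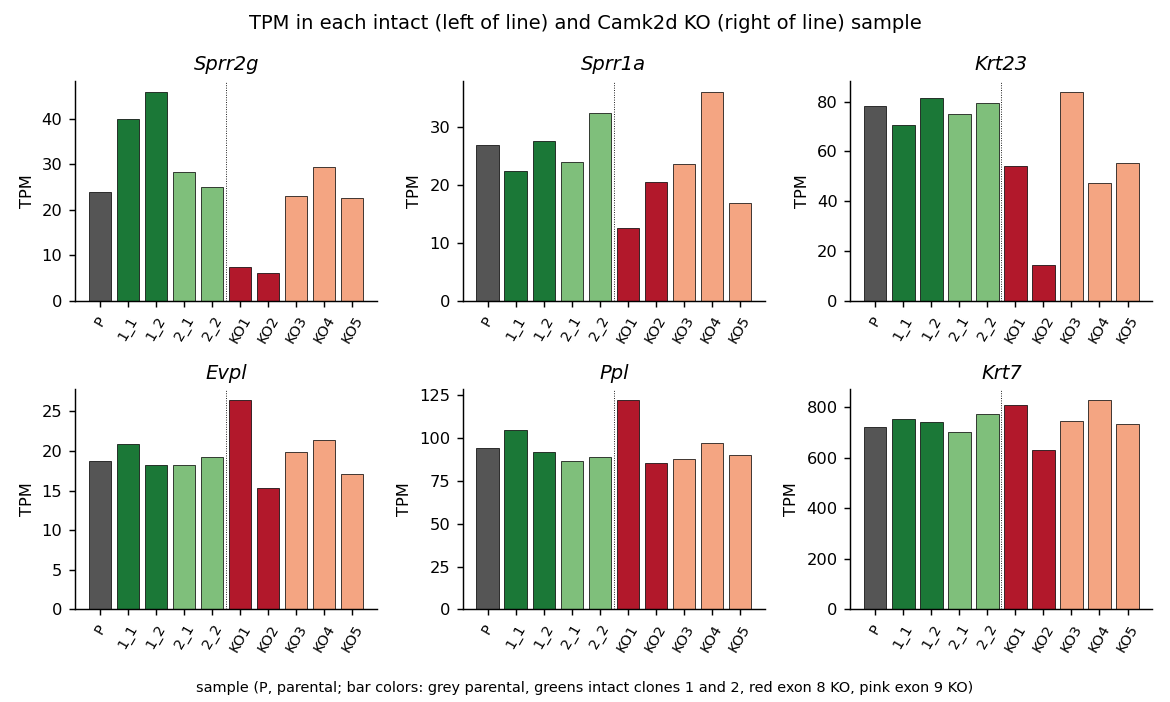
TPM per sample for 6 of the genes; bars left of the dotted line are intact samples and bars right of it KO clones. The exon 8 clones are lowest for Sprr2g (7.52 and 6.04), KO 2 is lowest for Krt23 (14.5), and KO 1 is highest for Evpl (26.4) and Ppl (122).

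The KO clones are next given one by one, with the counts including Sprr2g. KO 2 was the lowest of the 10 samples for 6 members (Krt7, Krt19, Krt23, Sprr2g, Evpl and Ppl) and below every intact sample for 8, where 18.9% of all genes tested were. KO 5 was also below every intact sample for 8 members (13.9% of all genes) but was lowest for 1 (Krt8). KO 1 was below all intact samples for 6 members (18.7% of all genes) and above them for 3 (26.0%). KO 3 was below for 3 members (12.5%) and above for 1 (17.8%), and KO 4 below for 2 (13.2%) and above for 3 (24.8%). KO 2 and KO 5 were above all intact samples for 0 members, as against 33.4% and 16.5% of all genes. The members were chosen with these clones' values in view, so the counts are a description. Each clone is a single sample, so its own error is not known.

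Exon 9 and exon 8 KO clones are set side by side as a description. Sprr2g averaged 6.78 TPM in the 2 exon 8 clones, 20.8% of the intact mean, and 25.0 ± 3.79 (SD, n = 3) in the exon 9 clones, 76.5% of it, a log2 difference of 1.74. It was the single member whose clones did not overlap by guide, and with 2 against 3 samples 22.4% of all genes tested did not overlap either. Krt23 had means of 34.4 TPM (exon 8) and 62.2 ± 19.3 (exon 9), but KO 1 at 54.3 lay above KO 4 at 47.3. Sprr1a had means of 16.5 and 25.6 ± 9.77, with KO 2 at 20.5 above KO 5 at 16.9. For the other 7 members the log2 difference was between -0.15 (Ppl) and 0.11 (Krt7). Aqp2, the vasopressin-regulated water channel, was also lower in exon 8 clones (1281 and 1618 TPM) than in exon 9 clones (2856 to 3789). Among the other principal cell markers the exon 9 minus exon 8 log2 difference was 1.08 for Fxyd4 and 0.68 for Avpr2, the vasopressin receptor, but -0.19 for Scnn1a, -0.20 for Scnn1b, -0.13 for Scnn1g and -0.18 for Hsd11b2, and it lay between -0.09 (Elf5) and 0.25 (Tfcp2l1) for the other 5. For several of these the 2 exon 8 clones were far apart. In KO 1 and KO 2, Fxyd4 was 588 and 194 TPM (690 to 737 in exon 9 clones) and Avpr2 192 and 114 (224 to 264). On both sides of the exon 9 clones lay Scnn1a, at 260 and 141 (149 to 188), and Hsd11b2, at 11.5 and 115 (27.5 to 43.1). The part of these markers in the Sprr2g values was not tested.

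The intact clones show how far the same transcripts vary with Camk2d present. The rule used no value of this comparison, although the genes were chosen with earlier results of these data known. Clone 2 was compared with clone 1 in a limma fit of the 5 intact samples in 3 lines. The sources used here do not say if the samples of an intact clone were cultured apart, so these p-values measure only the spread between those samples. Again 0 of 10 members passed an adjusted p of 0.05, as did 0.00% of all genes, while 249 genes and no member passed when those with a mean of at least 1 TPM were tested alone. At an unadjusted p under 0.05 there were 4 members (Krt8, Krt19, Krt20 and Sprr2g), all lower in clone 2, where 17.0% of all genes passed. With the spread taken from all 10 samples in 4 groups, 0 of these 4 passed unadjusted. The clones did not overlap for 6 members, against 44.2% of genes. The difference was below 0 for 8 members, with a median of -0.10 against -0.01 over all genes, of which 53.3% were below 0.

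Among the members Sprr2g had the largest difference between intact clones, with 39.9 and 46.0 TPM in clone 1 and 28.4 and 25.1 in clone 2 (log2 difference -0.66, SE 0.11, adjusted p = 0.152). The parental line, at 23.9 TPM, was below both clones. Krt19 was 1409 and 1446 TPM in clone 1 and 1254 and 1262 in clone 2 (log2 difference -0.18, adjusted p = 0.154). Krt8 differed by -0.13 (adjusted p = 0.225) and Krt20 by -0.13 (adjusted p = 0.241). The intact lines thus spread Sprr2g over 23.9 to 46.0 TPM. Of the exon 9 clones, KO 4 (29.4) lay within that range and KO 3 (23.1) and KO 5 (22.6) just under it. The exon 8 clones (7.52 and 6.04) lay further below. Setting these KO values beside the intact range is a description, since they chose the group.

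Relatives of these genes were mostly low. Of 48 other keratins in the table, 21 were listed at 0 in all samples and 2 had a mean of at least 1 TPM. These were Krt10, a keratin of differentiating epidermis, at 16.7 ± 1.37 TPM in intact and 15.5 ± 1.53 in KO samples, and Krt80 at 10.3 ± 1.09 and 10.3 ± 1.65. Krt17 came next with 0.23 and 0.45 TPM. Of 12 other keratins tested between KO and intact, 0 were called (0 also unadjusted), 5 were higher and 7 lower. Of 15 other small proline-rich genes, 7 were at 0 throughout and none averaged 1 TPM over the 10 samples. Sprr2g carried 91.1% to 97.0% of all Sprr2 TPM.

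Sprr2f, the gene 7.5 kb from Sprr2g, was the most abundant of those relatives. It averaged 1.26 TPM in intact samples and 1.07 in exon 9 clones, and it was 0.80, 1.89, 1.54, 1.25 and 0.83 TPM in the intact samples and 1.11, 0.84 and 1.27 in the exon 9 clones, and it was listed at 0 in both exon 8 clones. As with Sprr2g, clone 1 was highest among intact samples. The log2 difference between KO and intact was -0.53 (SE 0.26, adjusted p = 0.755). In GENCODE M21 no 50-base window of Sprr2f occurs in Sprr2g. Only exact windows were compared, without mismatches and not in the authors' annotation. Whether reads of one gene were counted for the other was not tested. Sprr2h and Sprr2e averaged at most 0.17 TPM in either group.

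Other proteins and enzymes of the envelope were present in part. Of 30 found in the table, 12 were at 0 in all samples, among them filaggrin-2 and transglutaminase 3, and 9 averaged at least 1 TPM. Scel, which encodes the envelope precursor sciellin, was the most abundant at 138 ± 3.43 TPM in intact and 135 ± 9.58 in KO samples. Lypd3, a membrane protein of squamous cells, was at 55.7 ± 9.25 and 48.5 ± 11.6, with 36.3 and 37.4 in the exon 8 clones and 49.6 to 62.6 in the exon 9 clones. Sbsn separated by guide the other way, with 5.30 and 3.74 TPM in the exon 8 clones and 1.77 to 2.32 in the exon 9 clones. Of all genes tested, 22.4% did not overlap by guide. Tgm1, the transglutaminase that crosslinks the envelope, was at 18.4 ± 4.70 and 15.9 ± 5.86. The largest differences among those above 1 TPM were -0.53 for Cst6 (SE 0.37, adjusted p = 0.805) and 0.39 for Sbsn (SE 0.25, adjusted p = 0.771). Of 14 tested, 0 were called (0 also unadjusted), 4 were higher and 10 lower, with a median of -0.08.

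Among other plakin and desmosome genes most differences were above 0. Of 13 tested, 11 were higher and 2 lower in KO clones, with a median log2 difference of 0.10, where 57.3% of all genes tested were higher, and 0 were called, also at an unadjusted p under 0.05. Jup, which encodes plakoglobin, was at 428 ± 19.2 TPM in intact and 473 ± 41.9 in KO samples (log2 difference 0.14, SE 0.07, adjusted p = 0.735). Dsg2, the desmoglein of simple epithelia, was at 30.9 ± 1.98 and 34.3 ± 4.07 (0.14, SE 0.08, adjusted p = 0.759). Perp, at 107 ± 5.44 and 118 ± 17.1, and Plec, at 67.7 ± 7.32 and 73.9 ± 4.24, completed the most abundant. Of the desmogleins and desmocollins of skin, Dsg1b, Dsg1c and Dsc3 were at 0 in all samples, and Dsg1a, Dsg3, Dsg4 and Dsc1 did not exceed 0.07 TPM in any. Of 8 other intermediate filament genes tested, 0 were called (0 also unadjusted), with Lmna at 391 ± 26.3 and 389 ± 25.1, Lmnb1 at 49.0 ± 9.67 and 44.0 ± 8.85, Lmnb2 at 44.0 ± 1.35 and 46.0 ± 3.63 and Synm at 1.99 and 1.74. Vimentin, the filament of mesenchymal cells, did not exceed 0.02 TPM in any sample.

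**Figure D4:**
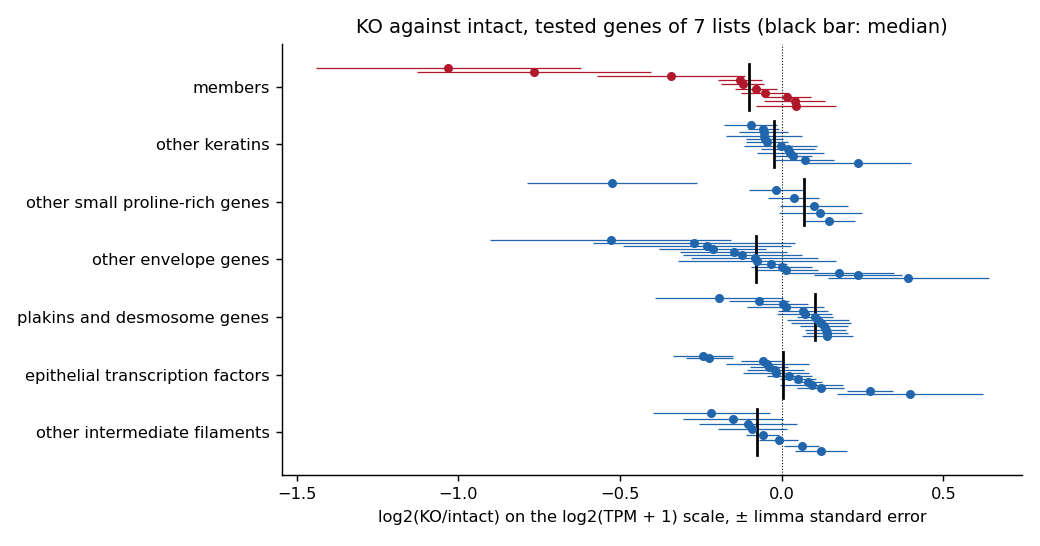
Difference between KO and intact on the log2(TPM + 1) scale for each tested gene of 7 lists, with the limma standard error; black bars are medians. Apart from Sprr2g, which is given no test here, none of these genes passed an adjusted p of 0.05. The medians run from -0.10 for the members, Sprr2g included, to 0.10 for plakins and desmosome genes.

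Transcription factors that act in barrier epithelia were also read, as 17 genes of which 14 were tested and 0 called (7 higher, 7 lower, median 0.00). At an unadjusted p under 0.05 there were 3, Klf5, Ehf and Grhl1, where 6.99% of all genes passed. Klf5, a Kruppel-like factor, was at 101 ± 5.46 TPM in intact and 122 ± 12.3 in KO samples (log2 difference 0.27, SE 0.07, adjusted p = 0.524). The ETS factor Ehf was at 291 ± 28.4 and 248 ± 15.3 (-0.22, SE 0.07, adjusted p = 0.569). Grhl1, a grainyhead factor, was the single gene of the list whose groups did not overlap, with 20.8 to 24.0 TPM in intact samples and 14.6 to 20.5 among KO clones, where 1.64% of all genes did not overlap. It is named for that after its values were seen. Elf3 was at 603 ± 41.2 and 598 ± 71.0, Gata3 at 250 ± 7.84 and 264 ± 12.6, and Fosl1, an AP-1 subunit, at 8.55 ± 1.5 and 12.1 ± 4.56 (0.40, SE 0.23, adjusted p = 0.759).

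Markers of cell types were read beside these values. Of 12 principal cell markers 8 averaged at least 10 TPM, led by Aqp2 (3773 to 5502 TPM in intact samples and 1281 to 3789 among KO clones), Fxyd4 (633 to 849 and 194 to 737) and Gata3. Aqp4 was low, at 3.83 ± 3.86 and 0.62 ± 0.76, and differed between the intact clones, with 7.00 and 8.54 TPM in clone 1 and 0.10 and 0.18 in clone 2. Elf5 was at 0 in 8 of 10 samples. The 12 markers summed to 5144 to 7132 TPM in intact and 2512 to 5369 in KO samples, most of it Aqp2. Of 11 tested, 0 were called, 5 were higher and 6 lower, and 1 (Aqp2) passed unadjusted. Against the mean direction of Aqp2, Hsd11b2, which inactivates glucocorticoids, was at 19.5 ± 2.82 TPM in intact and 45.3 ± 40.5 in KO samples (log2 difference 0.79, SE 0.46, adjusted p = 0.761). Hsd11b2 was 115 TPM in KO 2 but 11.5 in KO 1, below every intact sample (17.8 to 24.5). Scnn1a averaged 168 TPM in intact and 181 in KO samples. In such bulk samples fewer cells of a type and less RNA per cell cannot be told apart. The 7 intercalated cell markers summed to at most 0.79 TPM, with Slc4a9 and Hepacam2 the highest, Slc26a4 at most 0.32 and Atp6v1g3 at 0.

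Urothelial and squamous markers bear on the same gene families. The 6 urothelial markers summed to 552 to 668 TPM in intact and 302 to 749 in KO samples. Upk1a made up most of this at 406 to 541 TPM in intact samples, with 195 in KO 2 and 475 to 557 in the other KO clones. Upk3b was at 103 ± 18.2 and 102 ± 47.5 and Psca at 26.7 ± 4.51 and 30.5 ± 14.5, while Upk2 was at 5.60 ± 1.49 and 3.42 ± 1.58 (log2 difference -0.62, SE 0.24, adjusted p = 0.661) and Upk3a did not exceed 0.86. KO 2 was lowest for Upk1a and Upk2 (1.76 TPM) but not for the other 4 markers. Upk3b, at 84.5 TPM in KO 2, was within the intact range of 84.0 to 125 and lowest in KO 5. Psca and Upk1b were lowest in KO 3, though Psca in KO 2 (18.7 TPM) was also below every intact sample (20.8 to 31.5). The part of these markers in the low Krt7, Krt19, Krt20 and Krt23 values of KO 2 was not tested. The 8 markers of stratified epithelium summed to 17.0 to 20.7 TPM in intact and 14.4 to 19.3 in KO samples, most of it Krt10. The basal markers Krt5 and Krt14 reached at most 0.19 TPM, Trp63 at most 0.41 and involucrin (Ivl) at most 2.64. Of 10 stromal and blood cell markers, which summed to 15.4 to 30.3 TPM over all samples, Csf1r (12.8 ± 2.61 and 14.0 ± 6.78) and Cd68 (5.00 ± 0.66 and 4.96 ± 2.32) exceeded 1 TPM, and Ptprc did not exceed 0.62. KO 1, the clone with the most Evpl and Ppl, was also the highest of the 10 samples for the urothelial markers Upk3b (186 TPM, intact maximum 125), Psca (53.0, intact maximum 31.5) and Upk1b (4.12, intact maximum 3.13). The other urothelial markers did not follow: Upk2 in KO 1, at 2.27 TPM, was below every intact sample (3.88 to 7.88), and Upk1a (503) and Upk3a (0.38) lay within the intact ranges. Of all genes tested, 26.0% were above every intact sample in KO 1. KO 1 was highest for Csf1r at 25.7 TPM too, whereas Cd68 in KO 1, at 3.91 TPM, was below every intact sample (3.93 to 5.54) and was highest in KO 2 at 9.05. The part of these markers in the plakin values was not tested.

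Genes with the most similar pattern were sought over the 8 cell lines, with 1 mean per line, among 13047 genes with a mean of at least 1 TPM. Pearson's r of log2(TPM + 1) with Sprr2g was 0.988 for Ndufa6, 0.984 for Fastkd2 and 0.978 for Ndufs5. All of these were lowest in the exon 8 clones: Ndufs5, for example, averaged 90.8 TPM there, 121 in exon 9 clones and 128 in intact samples. For Sprr1a the nearest were 9230114K14Rik (0.955), Gm9993 (0.954) and Gm19705 (0.947), and for Krt8 H1f4 (0.979), Sra1 (0.958) and 1700007L15Rik (0.942). Between members, r of Sprr2g was 0.65 with Sprr1a, 0.73 with Krt23, 0.76 with Krt19, 0.65 with Krt18, 0.56 with Krt20, 0.37 with Krt7, -0.02 with Evpl, -0.08 with Krt8 and -0.23 with Ppl, and r of Krt8 with Krt18 was 0.60. The lines include both exon 8 clones, all share the same total of TPM, and these values are a description. The nearest genes are the highest r among 13047 genes over 8 values each. Sprr2g was chosen for its difference between the guides, so low exon 8 values in its nearest genes follow from the search.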

How the data were processed

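RNA was measured in 10 samples of mpkCCD cells. The authors amplified full-length cDNA and sequenced paired ends of 50 bp. Alignment was done by STAR 2.7.10b with Ensembl 106 gene models, and RSEM 1.3.1 quantified each gene. The values used are the TPM per gene that the authors deposited, and 0 columns of the table were left out. Their edgeR test used expected counts, which were not used here. TPM keep no depth, so no counting interval is given and a 0 is reported as listed at 0. Each difference is relative to the other transcripts.

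Groups came from the sample labels. The guide of each KO clone was matched by clone number from the study's mutation list. The 20000 genes with the highest mean TPM (lowest 0.049) were compared as log2(TPM + 1) with limma 3.58.1 in R 4.3.3 (lmFit, eBayes with trend, Benjamini-Hochberg adjustment over all of them). Log2 differences on this scale understate changes of low genes. Single genes were compared with two-sided exact permutation tests, unadjusted. The fit was tested on simulated data beforehand. Descriptions used Python 3.11.15, pandas 2.3.3 and numpy 2.4.6, and plots matplotlib 3.10.9.

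The members and lists were chosen with earlier results of these data known. Genes named are the members, Camk2d, in each list the 3 with the highest mean and the 2 with the largest difference among those of at least 1 TPM, any called, and for Sprr2g, Sprr1a and Krt8 the 3 nearest by r. Other genes named (markers near 0, genes at 0, Krt8-ps, Grhl1, Hsd11b2, Avpr2, Scnn1a, Scnn1g, Tfcp2l1, Upk1b) were picked after their values were seen. Alternatives changed the pseudocount, the genes tested, the scaling, the limma trend, the unit (sample or cell line, with statmod 1.5.0), the threshold and the samples, and summed Sprr2 genes. Summing Krt8 and Krt8-ps was added after seeing the data. Positions and shared windows were read from GENCODE M21 on GRCm38, and promoters from RefSeq on GRCm38.p6, not from the authors' annotation.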

Additional observations from a re-analysis of the deposited data

How the results depend on the processing

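The number of members called was 0 under all alternatives run, for KO against intact (Sprr2g aside) and for clone 2 against clone 1. Over all genes, KO against intact gave 1 call and 2 with a pseudocount of 0.1, and 1 to 2 with each sample left out in turn, 2 without the parental line or without KO 2. Clone 2 against clone 1 gave 0 calls, but 249 among genes with a mean of at least 1 TPM, 11 without a trend, 28 with all 10 samples in 4 groups and 382 at an adjusted p under 0.1, and 0 with each sample left out. The cause of these changes was not tested.

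Of 172 alternative values for single members other than Sprr2g in KO against intact, 165 kept their direction and side of the threshold and 7 changed sign, each near 0. For Krt7 the log2 difference was -0.0113 after rescaling by median ratios, -0.000144 without intact sample 2_1, -0.0124 without KO 1 and -0.0207 without KO 4, up to 0.0787 without KO 2. For Krt18 it was 0.0665 after quantile normalization. Without KO 1, Evpl was at -0.0572 and Ppl at -0.0477, and the highest values with a sample left out were 0.129 and 0.0823. Sprr2g ranged from -1.26 to -0.74 over its alternatives, and was -0.80 without KO 1. Of 132 alternative values for clone 2 against clone 1, 126 kept direction and side of the threshold, though not size (Ppl went from -0.25 without 1_2 to -0.06 without 1_1, and Sprr1a was 0.02 without 1_1), and 6 changed sign. These were Krt7 (0.00204 with median ratios, 0.0486 without 2_1), Krt23 (-0.0787 without 1_1, -0.0158 without 2_2, up to 0.128), Evpl (0.0414 without 1_1) and Sprr1a (-0.0455 without 2_2, up to 0.369). The lowest value for Krt7, with the sign kept, was -0.0885 without 2_2. Summing Krt8 with its pseudogene left the differences at -0.08 and -0.14. No paired analysis was possible because the groups share no replicate numbers. Depth is unknown and KO clones have 1 sample each.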
